A study of Homo sapiens with 6 samples.

Results

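The genes described are the mitochondrial ribosomal protein genes, taken as every row of the raw count table whose gene identifier carries a symbol that starts with MRPL or MRPS followed by a digit. The rule found 79 of the 27745 genes in the table, 78 of them protein-coding and 1 non-coding. By the roles of their products, 26 encode proteins of the small subunit of the mitochondrial ribosome, 16 with a bacterial counterpart and 10 without. A further 51 encode proteins of the large subunit, 30 with a bacterial counterpart and 21 without. MRPS30 and MRPS18A are counted with the large subunit, where their proteins sit despite the names. The remaining 2 rows encode no ribosomal protein: MRPS36, whose product is a component of the α-ketoglutarate dehydrogenase complex, and MRPL20-DT, a long non-coding RNA transcribed away from MRPL20. All 79 passed the filter on low counts, so no member is missing from any comparison.

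The mitochondrial ribosome is the machine inside mitochondria that translates the few messenger RNAs made from mitochondrial DNA, all of which encode core subunits of the respiratory chain and ATP synthase. Its ribosomal RNAs come from the mitochondrial genome, whereas every one of its proteins is encoded in the nucleus, made in the cytosol and imported. The small subunit holds the messenger RNA and the decoding site, and the large subunit joins amino acids and sits at the inner membrane, into which the new chains are inserted.

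The libraries came from MDA-MB-231, an established human line of triple-negative breast cancer cells, and all 6 samples were infected with a short hairpin RNA (shRNA) lentivirus. The 2 control samples carried the sh-TRC vector, 2 samples carried sh-MIR100HG-1 and 2 carried sh-MIR100HG-2, a pair of hairpins against MIR100HG, the long non-coding host transcript of a microRNA cluster. The study asked what happens to the transcriptome of these cells when MIR100HG is depleted. The study calls the samples of each hairpin biological replicates. For the control samples the sources used here do not say so. The p-values below set differences against a spread estimated from all 3 groups together, and the control's part of that spread may be technical.

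Promoter sequences are shown first, because they hold features that the choice by name did not use. RefSeq promoter windows (250 bases before to 50 after each annotated start, GRCh38.p14) were found for 69 of the 79 members and for 11723 of the 15372 genes tested. Within them, 7 words were searched on both strands. CCGGAAG, the core letters bound by ETS-family factors such as GABPA, was present in 29 of 69 members (42.03%) and in 17.9% of tested genes. AAGATGGCG, a YY1-type word, was present in 13 members (18.8%) and in 3.61% of tested genes. GCGCNTGCG, letters bound by NRF1, was present in 11 members (15.9%) and in 13.7% of tested genes, a share close to the background. At least 1 of these 3 words was found in 43 members (62.3%) and in 30.8% of tested genes. The other words were at lower shares in the members than in the tested genes. The GC box GGGCGG was in 60.9% of members against 67.6%. The E-box, spelled CACGTG, was in 8.70% against 9.64%. The CCAAT box, searched by the letters of its name, was in 28.99% against 36.3%. A TATA box, written TATAAA, was in 2 members (2.90%) against 6.35%. No word contains another, a match is a description of letters and not of binding, and no test was made.

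The windows below are 30 bases each on the strand of the gene, 5′ to 3′, for members that recur in the results; capitals mark the ETS-type word or its reverse complement.
MRPS12 (chr19:38930928-38930957, + strand): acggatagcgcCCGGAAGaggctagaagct
MRPS10 (chr6:42217865-42217894, - strand): ccgctgtaaccCCGGAAGcaatcctgagag
MRPS16 (chr10:73252621-73252650, - strand): cggatcatccgCTTCCGGagtcgaggtttt
MRPL3 (chr3:131502985-131503014, - strand): tgtaaaacgcaCCGGAAGtgggtccggcgg
MRPL27 (chr17:50373174-50373203, - strand): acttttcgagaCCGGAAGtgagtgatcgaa
MRPL51 (chr12:6493348-6493377, - strand): cggcaggcggaCCGGAAGcactgaggcggg

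In the next windows the capitals mark the YY1-type word, which holds an ATG.
MRPS18A (chr6:43687763-43687792, - strand): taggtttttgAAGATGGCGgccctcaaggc
MRPS18B (chr6:30617853-30617882, + strand): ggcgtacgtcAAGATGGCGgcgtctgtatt
MRPS24 (chr7:43869479-43869508, - strand): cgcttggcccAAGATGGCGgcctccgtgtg
MRPS30 (chr5:44808950-44808979, + strand): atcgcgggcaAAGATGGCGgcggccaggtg
MRPL46 (chr15:88467361-88467390, - strand): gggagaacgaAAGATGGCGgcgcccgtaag

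In the last windows the capitals mark the NRF1-type word or its reverse complement.
MRPL14 (chr6:44127411-44127440, - strand): gggcctggcgCGCAGGCGCtaggaagaggc
MRPL17 (chr11:6683364-6683393, - strand): ccgagctaagGCGCATGCGttccctgaaat

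The words differed in where they lay. Of the 39 ETS-type matches in the members, 74.4% were within 60 bases of the annotated start, with a median centre at position -18.5 from it. Of the 14 YY1-type matches 85.7% were within that distance, with a median centre 13 bases after the start. NRF1-type matches lay further out, with a median centre at position -76.5.

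Some members had head-to-head neighbours. A protein-coding gene on the opposite strand started within 1000 bases of 17 of the 78 protein-coding members (21.8%), against 10.4% of the protein-coding genes tested. MRPL49, a large-subunit protein with no bacterial counterpart, starts 6 bases from FAU, which encodes a cytosolic ribosomal protein fused to a ubiquitin-like domain. MRPL46 and MRPS11, 1 from each subunit, start 63 bases apart.

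**Figure D1:**
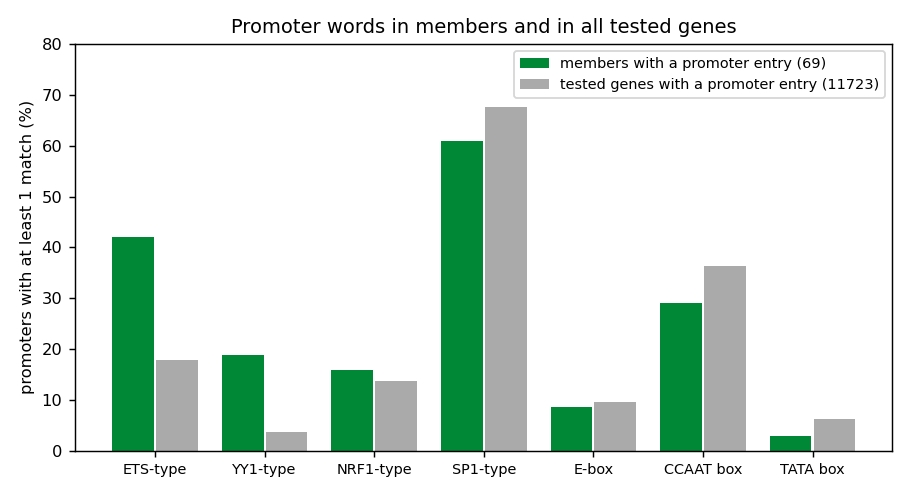
Bars give the share of promoter windows (%, y axis) that hold at least 1 match to each of 7 words (x axis), green for the 69 members with a window and grey for the 11723 tested genes with one. The ETS-type bar reaches 42.03% in the members against 17.9%, and the YY1-type bar 18.8% against 3.61%.

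The libraries held 43804736 to 64588388 counted reads. MIR100HG, the target, stood at 41.9 and 58.5 CPM in the control samples, where CPM are counts scaled to library size with edgeR's TMM factors. Under sh-MIR100HG-1 it measured 15.2 and 13.2 CPM. Under sh-MIR100HG-2 it measured 16.6 and 10.4 CPM, and the controls did not overlap the 4 knockdown samples. Its log2 fold change (log2FC) over the mean of the hairpins was -1.86 (SE 0.25), although its adjusted p was 0.381 in edgeR's quasi-likelihood test. Of the markers expected in this line, VIM, CD44, AXL, CAV1 and EGFR exceeded 1 CPM in every library, and the 12 markers of blood, endothelial, fibroblast, liver and basal cells in the table summed to 9.14 to 13.2 CPM. Of 7 markers listed as low in this line, PGR was at most 0.02 CPM, whereas ERBB2 was at 71.6 to 116 CPM and GATA3 at 9.88 to 13.0 CPM.

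All members passed the filter on low counts, MRPL20-DT with only 8 to 70 reads in a library, and their levels covered a wide range. Per kilobase of merged exons, control levels ran from 0.354 to 119 CPM per kb, with a median of 13.1. MRPL14, a conserved protein of the face of the large subunit that meets the small one, was the highest at 119 CPM per kb. MRPL51 (59.1), MRPL41 (58.2), MRPS10 (52.4) and MRPL17 (50.7) followed. In the control samples MRPS10 and MRPL17 lay below MRPL51, whereas the control samples of MRPL41 spanned those of MRPL51 and MRPS10, and those of MRPL17 spanned those of MRPS10. Taken per length of the canonical transcript instead, MRPL41 led at 126 CPM per kb, MRPL14 stood at 119 and MRPL51 at 102, while MRPS10 dropped to rank 13 and MRPL17 to rank 16.

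The lowest members were MRPL38 at 0.354 CPM per kb, MRPL20-DT at 0.439, MRPL53 at 0.728, MRPS24 at 1.24 and MRPS17 at 1.39. MRPL38 had only 39 to 89 reads in a library, in cells where MRPL14 had 5274 to 10735. Of these 5, the 4 protein-coding genes share exon bases with another counted gene: 37.5% for MRPL38, 45.2% for MRPL53 (with CCDC142), 23.2% for MRPS24 (with the read-through gene URGCP-MRPS24) and 27.0% for MRPS17 (with NIPSNAP2 among others). How reads in shared bases were assigned is not given in the sources used here, so these levels are uncertain. The same holds for MRPL12 (68.2% shared), MRPS18A (47.0%), MRPS18C (40.2%), MRPL43 (36.9%), MRPS28 (35.8%), MRPL51 (31.3%), MRPS25 (22.2%) and MRPL33 (21.1%), the other members that share over 20% of their exon bases.

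**Figure D2:**
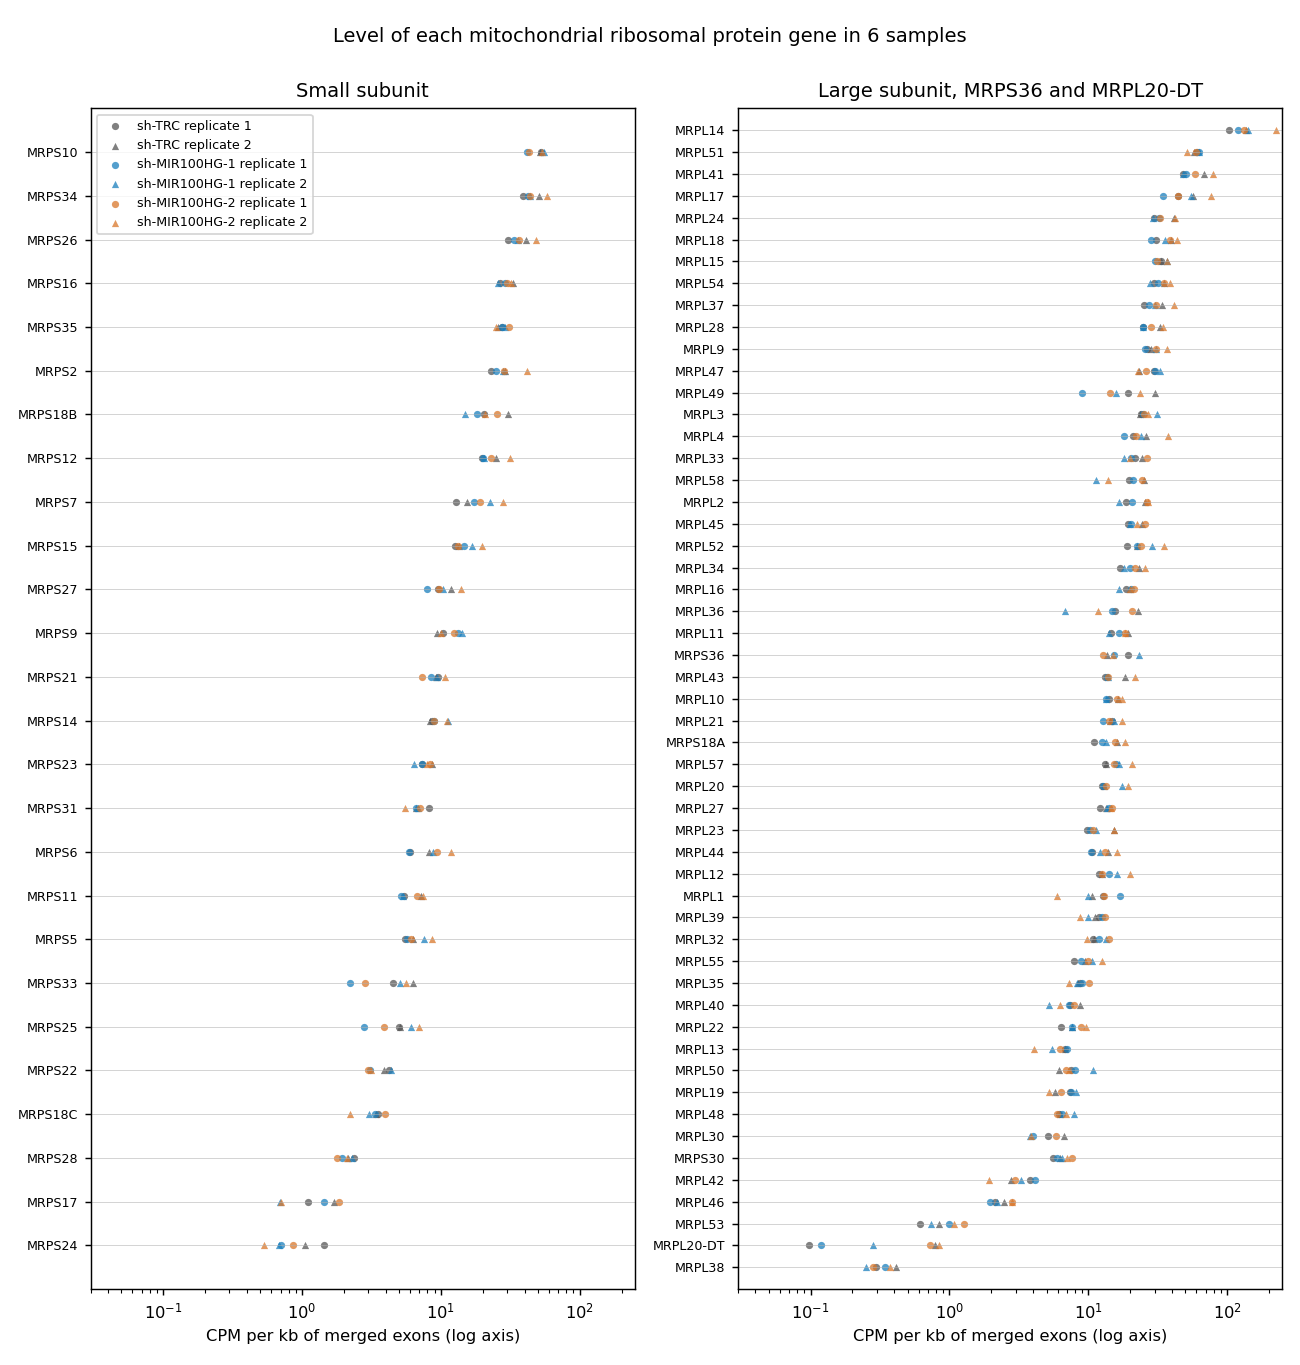
Each row is a gene and each point a library (colour for the group, circle for replicate 1 and triangle for replicate 2), with the level in CPM per kb of merged exons on a log x axis. Genes are sorted by the control mean, from MRPL38 at 0.354 to MRPL14 at 119, and for most of them the points of the 3 groups interleave.

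After depletion of MIR100HG the values of the mitochondrial ribosomal protein genes centred near the control. Over the mean of the hairpins, the median log2FC of the 79 members was 0.01, beside -0.04 over all 15372 genes tested. The members lay close to no change, with 94.9% within 0.5 log2 units of it against 78.4% of all genes, and none had a value beyond 1 log2 unit, against 5.89% of all genes. This was not particular to them: 97.6% of 82 cytosolic ribosomal protein genes lay within 0.5 log2 units. So did 93.6% of 78 nuclear respiratory chain and ATP synthase genes. The median SE was 0.22 in the members and 0.27 in all genes, and the shares were not matched for count level. No member passed an adjusted p of 0.05 in the quasi-likelihood test of edgeR, adjusted by Benjamini-Hochberg over all genes tested, and 0% of all genes did. DESeq2 and edgeR's likelihood ratio test called 129 and 109 of all genes in this comparison and also no member. At an unadjusted p under 0.05 there was 1 member above the control, MRPS7, with 3.23% of all genes called in that direction, and 1 below, MRPS24, with 4.44% of all genes.

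The subunits gave like values. The small subunit had a median log2FC of -0.03 over its 26 members, with 11 above 0 and 15 below. The large subunit had a median of 0.03 over its 51 members, with 33 above 0 and 18 below. Summed over the small subunit, the control level was 982 ± 100.4 CPM (SD, n = 2), and the hairpins gave 950 ± 96.0 CPM with sh-MIR100HG-1 and 1092 ± 153 CPM with sh-MIR100HG-2. The large subunit summed to 2152 ± 239 CPM in the control, 2089 ± 99.7 CPM with sh-MIR100HG-1 and 2405 ± 261 CPM with sh-MIR100HG-2. In both subunits the samples of each hairpin overlapped the controls. In the large subunit the samples with sh-MIR100HG-2, at 2221 and 2590 CPM, lay above those with sh-MIR100HG-1, at 2018 and 2159 CPM.

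Against the control, the hairpins gave medians on either side of 0. With sh-MIR100HG-1 the members' median log2FC was -0.09 (all genes -0.004), with 31 members above 0 and 48 below. With sh-MIR100HG-2 it was 0.13 (all genes -0.04), with 55 above and 24 below. By class, the members above 0 with sh-MIR100HG-1 were 7 of 16 small-subunit genes with a bacterial counterpart, 1 of 10 without, 14 of 30 large-subunit genes with one and 8 of 21 without, where 49.7% of all genes were above 0. With sh-MIR100HG-2 they were 10, 6, 24 and 14 in the same order, where 45.8% of all genes were. No member passed the adjusted threshold with either hairpin in edgeR's quasi-likelihood test, DESeq2 or the likelihood ratio test, where the first called 0% of all genes. For the hairpins in order, DESeq2 called 65 and 165 of all genes and the likelihood ratio test 34 and 121. With sh-MIR100HG-1, no member was above the control at an unadjusted p under 0.05 (3.1% of all genes were), and MRPL49 and MRPS18B were below (3.77% of all genes). With sh-MIR100HG-2, MRPS7 was above (3.71% of all genes) and no member was below (5.15%). In each direction the share of members was under that of all genes. In bulk libraries, fewer cells that express a gene and less RNA per cell cannot be told apart.

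**Figure D3:**
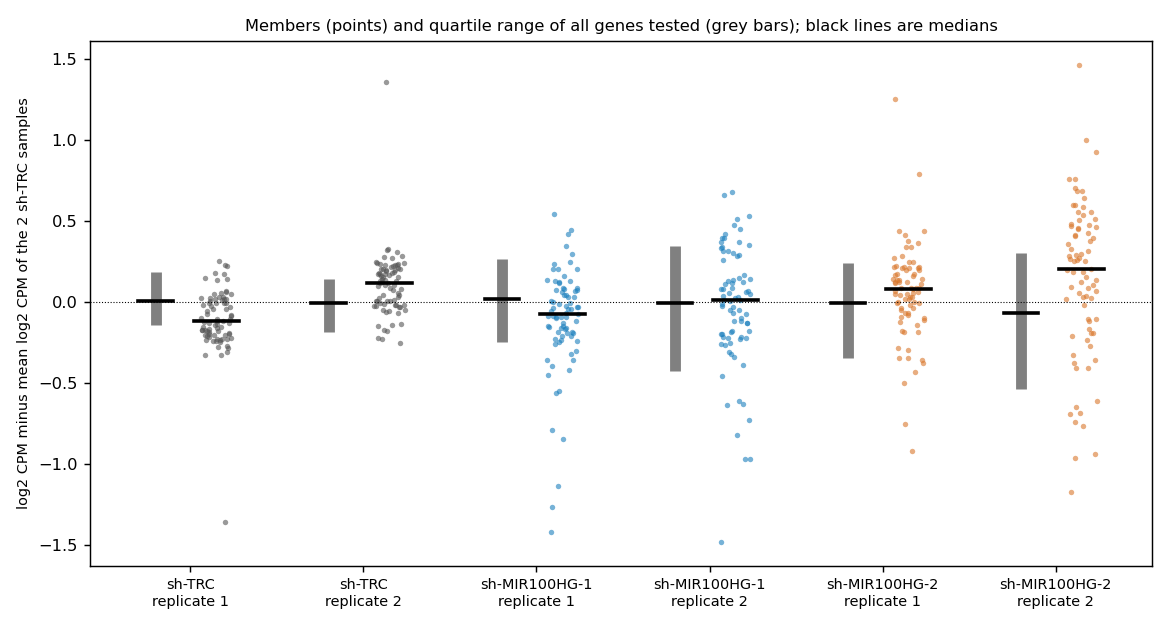
For each library, points give the 79 members' log2 CPM minus the mean of the 2 sh-TRC samples, the grey bar spans the quartiles of all genes tested, and black lines are medians. The members' median runs from -0.12 in sh-TRC replicate 1 to 0.20 in sh-MIR100HG-2 replicate 2, while the median of all genes stays between -0.07 and 0.02.

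The spread between replicates bounds these medians. The members' median stood at -0.12 and 0.12 in the control samples relative to their own mean, so that the controls differed from each other by more than either hairpin's median differed from them. It was -0.07 and 0.01 in the samples with sh-MIR100HG-1, inside the range of the controls. In the samples with sh-MIR100HG-2 it was 0.08 and 0.20, of which only the second lay above both controls. Without sh-TRC replicate 1 the median log2FC over both hairpins was -0.07, and without sh-TRC replicate 2 it was 0.17.

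MRPS7 encodes a small-subunit protein that binds the ribosomal RNA near the head of the subunit. Its levels were 42.7 and 51.0 CPM in the control, 57.3 and 74.8 CPM with sh-MIR100HG-1, and 63.2 and 93.3 CPM with sh-MIR100HG-2. Neither control reached the lowest of the 4 knockdown samples. The log2FC was 0.50 (95% interval -0.11 to 1.10) with sh-MIR100HG-1 and 0.74 (0.13 to 1.35) with sh-MIR100HG-2. Over their mean it was 0.62, with an adjusted p of 0.615 in edgeR's quasi-likelihood test. The gene lies at chr17:73257755-73262454 on the + strand of GRCh37 and shares 10.8% of its exon bases with its neighbours GGA3 and MIF4GD.

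MRPS24, a small-subunit protein with a bacterial counterpart, was the member with the lowest value over both hairpins. Its levels were 3.74 and 2.74 CPM in the control, 1.84 and 1.80 CPM with sh-MIR100HG-1, and 2.25 and 1.398 CPM with sh-MIR100HG-2, from 70 to 201 reads in a library. Every knockdown sample lay below both controls. The log2FC over the hairpins was -0.83 (95% interval -1.65 to -0.01), with an adjusted p of 0.645 in edgeR's quasi-likelihood test. Its values with each hairpin were nearly the same, at -0.83 with both. Since a read-through gene was counted over some of the same exons, these values cannot be assigned to MRPS24 alone.

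MRPL49 had its lowest values with sh-MIR100HG-1 and overlapped the control with sh-MIR100HG-2. It measured 59.2 and 92.8 CPM in the control, 27.7 and 48.6 CPM with sh-MIR100HG-1, and 44.1 and 73.1 CPM with sh-MIR100HG-2. The samples of a group differed by 0.65, 0.81 and 0.73 log2 units, in that order. The log2FC with sh-MIR100HG-1 was -0.99 (95% interval -1.84 to -0.15), with an adjusted p of 0.714 in edgeR's quasi-likelihood test. With no filter on low counts the same test gave an adjusted p of 0.0414, the only setting in which a member was called. Its log2FC with sh-MIR100HG-2 was -0.38 (-1.22 to 0.47), and the interval of the difference between the hairpins ran from -0.22 to 1.46. MRPL49 shares 12.2% of its exon bases with the counted genes FAU and SYVN1, and how reads in them were assigned is not given.

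MRPS18B is 1 of the MRPS18 paralogues, of which B and C are small-subunit proteins and A belongs to the large subunit. It measured 38.5 and 57.1 CPM in the control, 34.3 and 28.3 CPM with sh-MIR100HG-1, and 47.8 and 38.9 CPM with sh-MIR100HG-2. Only the samples with sh-MIR100HG-1 lay below both controls, at a log2FC of -0.61 (95% interval -1.22 to -0.001). MRPS18A gave -0.07 under sh-MIR100HG-1 but 0.32 under sh-MIR100HG-2, and MRPS18C gave -0.11 and -0.16, all with intervals that include 0. With sh-MIR100HG-1 all 3 paralogues were below 0, and with sh-MIR100HG-2 only MRPS18A was above it; their differences from each other were not tested.

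The decoding, stalk and membrane-contact proteins had intervals that include 0. MRPS12, the decoding protein that in bacteria carries streptomycin resistance mutations, gave -0.15 with sh-MIR100HG-1 (95% interval -0.71 to 0.41) and 0.29 with sh-MIR100HG-2 (-0.27 to 0.85). MRPL12, the stalk protein that recruits translation factors, gave 0.30 (-0.36 to 0.96) and 0.41 (-0.25 to 1.08), and its levels of 12.3 and 12.8 CPM in the control lay below the 13.0 to 20.5 CPM of the knockdown samples. MRPL45, which anchors the large subunit to the inner membrane, gave -0.12 (-0.64 to 0.40) and 0.14 (-0.38 to 0.66). Among these intervals the lowest end was -0.71 and the highest 1.08 log2 units, so small changes in either direction could not be told from 0 with 2 samples a group.

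Of the members in which inherited variants cause mitochondrial disease and which were listed for that (MRPS16, MRPS22, MRPL3 and MRPL44), MRPS22 had the lowest value over the mean of the hairpins, -0.26, from -0.12 (95% interval -0.71 to 0.47) with sh-MIR100HG-1 and -0.39 (-0.99 to 0.20) with sh-MIR100HG-2. Its levels were 22.6 and 21.0 CPM in the control, 16.6 and 23.5 CPM with sh-MIR100HG-1, and 16.1 and 17.0 CPM with sh-MIR100HG-2. MRPS16 gave -0.13 and 0.04, MRPL3 gave 0.24 and 0.14, and MRPL44 gave -0.11 and 0.26, sh-MIR100HG-1 first. MRPL3 was among the genes with every knockdown sample above both controls, at 63.5 and 65.1 CPM against 67.6 to 84.4 CPM. For MRPS30 the values were 0.07 and 0.31, for MRPL4 -0.15 and 0.34, and for MRPL41 -0.24 and 0.24. The last 2 had values on either side of 0, as the medians had. For MRPL4 the samples of the hairpins overlapped, at 74.1 and 98.1 CPM with sh-MIR100HG-1 and 89.8 and 152 CPM with sh-MIR100HG-2.

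**Figure D4:**
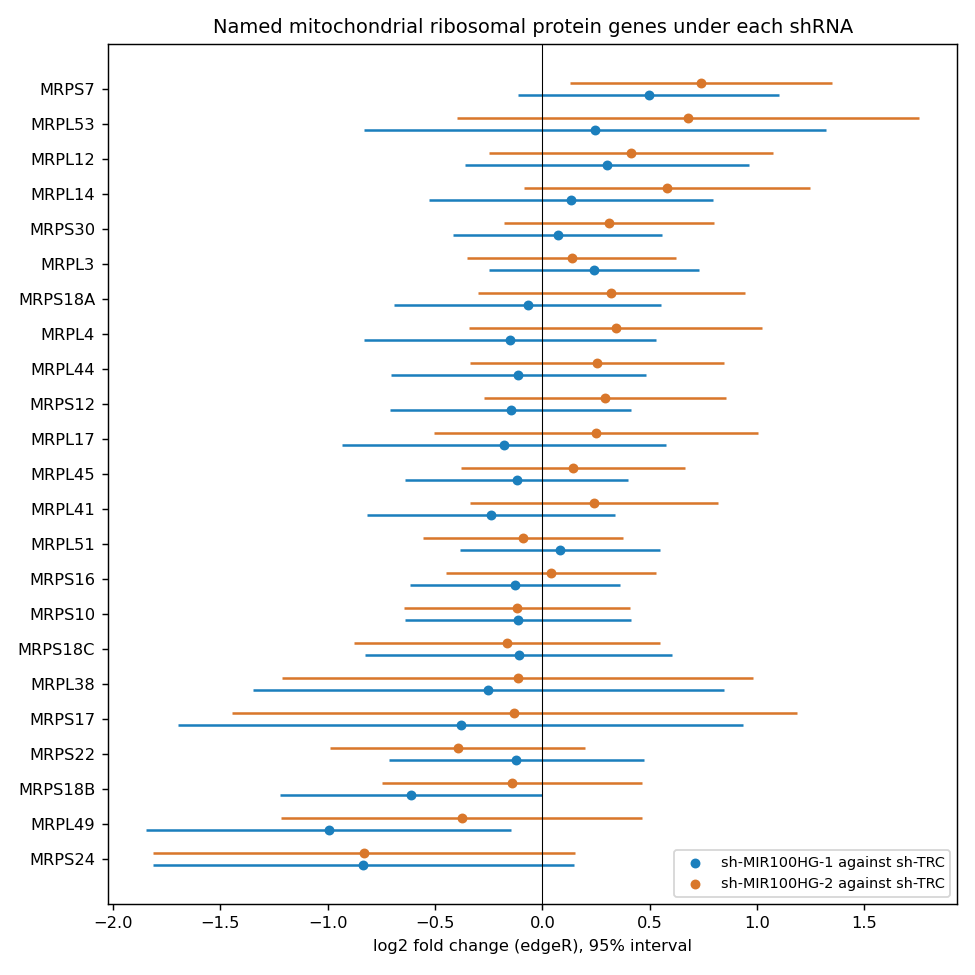
Points give the log2FC of 23 members against sh-TRC (x axis), blue for sh-MIR100HG-1 and orange for sh-MIR100HG-2, with 95% intervals as lines, sorted by the mean of the hairpins; MRPL20-DT is left out. Only MRPS7 with sh-MIR100HG-2 and MRPL49 and MRPS18B with sh-MIR100HG-1 have intervals that leave out 0, and for most genes the orange point is to the right of the blue.

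Counted by overlap, 6 members (7.59%) had all 4 knockdown samples above both controls: MRPL3, MRPL12, MRPL27, MRPL57, MRPS7 and MRPS14. Over all genes 8.4% did so. MRPS24 was the only member with all 4 below (1.27%), against 9.08% of all genes. MRPL57, a large-subunit protein with no bacterial counterpart, illustrates the size of the first kind: 29.6 and 29.97 CPM in the control, 35.4 and 37.5 CPM with sh-MIR100HG-1, and 34.5 and 46.5 CPM with sh-MIR100HG-2. MRPL27, MRPL57 and MRPS14 are named here after their values were seen.

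Between the hairpins most members were higher with sh-MIR100HG-2, by a small margin. The median log2FC of sh-MIR100HG-2 over sh-MIR100HG-1 was 0.24 in the members, with 59 above 0 and 20 below, and -0.01 in all genes. The direction was not particular to the members. The cytosolic ribosomal protein genes had a median of 0.13, with 57 above 0 and 25 below. In the nuclear respiratory chain and ATP synthase genes it was 0.16, with 57 above 0 and 21 below. No member passed the adjusted threshold (0% of all genes) or an unadjusted p under 0.05 in edgeR's quasi-likelihood test, while 3.34% of all genes passed the latter above 0 and 6.12% below. DESeq2 and the likelihood ratio test called 103 and 91 of all genes and no member. Both samples with sh-MIR100HG-2 lay above both with sh-MIR100HG-1 for 28 members (35.4%) against 20.6% of all genes, and below for 7 members (8.86%) against 23.3%. Of the 79 members, 72 had a difference within 0.5 log2 units (91.1%), against 69.6% of all genes. That share was 96.3% in the cytosolic ribosomal protein genes and 89.7% in the nuclear respiratory chain and ATP synthase genes. The members' median was 0.32 without sh-MIR100HG-2 replicate 1 and 0.10 without sh-MIR100HG-2 replicate 2.

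The 28 higher members came from all 4 classes of ribosomal proteins, with MRPL20-DT beside them. They include MRPS12, MRPS16, MRPS18A, MRPS18B, MRPS30, MRPL41, MRPL44, MRPL45 and MRPL53 of the genes described above. MRPL2, an RNA-binding protein of the peptidyl transferase region, measured 52.6 and 42.3 CPM with sh-MIR100HG-1 and 66.7 and 67.7 CPM with sh-MIR100HG-2, a log2FC of 0.50 (95% interval -0.05 to 1.05). The head-to-head pair had like values, with 0.44 for MRPL46 (-0.12 to 0.999) and 0.44 for MRPS11 (-0.10 to 0.97). MRPL20-DT had the highest value of all members, 1.998 (-0.09 to 4.09), from 12 and 18 reads with sh-MIR100HG-1 and 50 and 64 reads with sh-MIR100HG-2. Its control samples held 8 and 70 reads, a spread as wide as that between the hairpins.

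The 7 lower members were MRPL19, MRPL42, MRPL47, MRPL50, MRPL51, MRPS9 and MRPS36. MRPL42 had the lowest value, -0.61 (95% interval -1.26 to 0.05), with 68.0 and 53.9 CPM under sh-MIR100HG-1 and 48.5 and 31.5 CPM under sh-MIR100HG-2. Its exons have a GC content of 38.5%, and those of MRPL2 one of 52.2%. MRPS36, the α-ketoglutarate dehydrogenase component, gave -0.47 (-1.14 to 0.21) at a GC content of 39.9%. MRPL2, MRPL42, MRPL46 and MRPS11 were chosen for mention after their values were seen.

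GC content moved with this difference. Across the 79 members the log2FC of sh-MIR100HG-2 over sh-MIR100HG-1 correlated with exon GC content at r = 0.454, and across all 15372 genes at r = 0.228, where all points come from the same 4 libraries and genes are not independent replicates. The 18 members with at most 42% GC had a median of -0.10 (all genes of that class -0.33). The 27 members from 42% to 50% had 0.21 (-0.03), the 20 from 50% to 58% had 0.33 (0.14) and the 14 above 58% had 0.28 (0.18). In every class the members' median was above that of all genes. With trends in gene length and GC content removed from each library, the correlation in the members was -0.05, and their median was 0.22 beside 0.07 over all genes. The part of GC content in the original value was otherwise not tested.

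**Figure D5:**
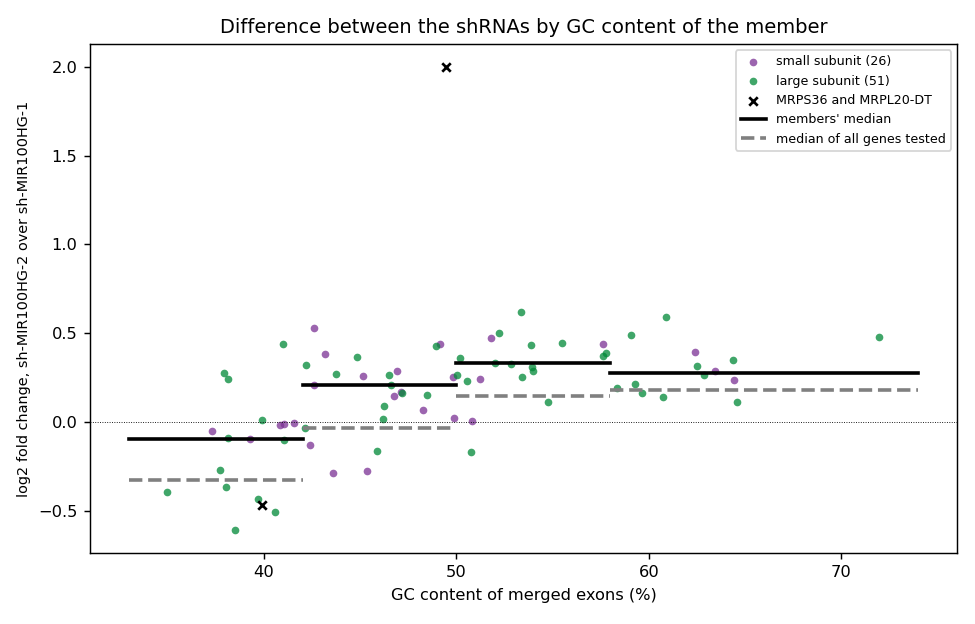
Each point is a member, with exon GC content (%) on the x axis and the log2FC of sh-MIR100HG-2 over sh-MIR100HG-1 on the y axis, purple for the small subunit, green for the large, and crosses for MRPS36 and MRPL20-DT. Black lines are the members' medians and grey dashed lines those of all genes in 4 GC classes, from -0.10 against -0.33 at most 42% GC to 0.28 against 0.18 above 58%.

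Members with and without the ETS-type word differed a little in their medians. The 29 with it had a median log2FC of -0.11 under sh-MIR100HG-1 but 0.05 under sh-MIR100HG-2, and the 40 without it 0.002 and 0.23. Between the hairpins the medians were 0.19 with the word and 0.26 without. For the YY1-type word they were 0.21 in 13 members and 0.25 in the 56 without, and for the NRF1-type word 0.26 in 11 and 0.24 in 58. None of these differences was tested.

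The members also varied between the samples of a group. The median SD of log2 CPM over the 6 samples was 0.24 in the members, beside 0.17 in 82 cytosolic ribosomal protein genes and 0.35 in all genes. As a signed difference, replicate 2 minus replicate 1, the members' median was 0.24 log2 units in the control, 0.10 under sh-MIR100HG-1 and 0.21 under sh-MIR100HG-2. The same signed median was 0.24, 0.13 and 0.21 in the cytosolic ribosomal protein genes and -0.01, -0.01 and -0.03 over all genes. Without regard to sign, the members' median difference was 0.30, 0.23 and 0.34 log2 units, beside 0.33, 0.31 and 0.38 over all genes.

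Some members varied more within the hairpin groups than between them, and they were chosen after their values were seen. MRPL36, a short large-subunit protein with a bacterial counterpart, measured 20.5 and 9.40 CPM with sh-MIR100HG-1, 28.8 and 16.3 CPM with sh-MIR100HG-2, and 21.6 and 31.9 CPM in the control. MRPL58, a peptidyl-tRNA hydrolase that became part of the large subunit, had 23.4 and 12.5 CPM, then 27.1 and 15.2 CPM, with 21.8 and 27.7 CPM in the control. In both genes 1 sample of each hairpin lay inside the range of the controls and the other below it, except that both MRPL36 samples with sh-MIR100HG-1 were below.

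MRPS33 and MRPS25, small-subunit proteins without a bacterial counterpart, had splits of like size. MRPS33 had 11.7 and 26.6 CPM with sh-MIR100HG-1 and 14.8 and 29.4 CPM with sh-MIR100HG-2, beside 23.7 and 33.03 CPM in the control. MRPS25 had 15.1 and 33.01 CPM, then 21.1 and 37.6 CPM, beside 26.9 and 27.2 CPM. For these genes the samples of a hairpin differed by more than the hairpins' means did, and their group means carry wide errors. The splits ran the same way by replicate number in both hairpins. Replicate 2 minus replicate 1 was 1.19 and 0.99 log2 units for MRPS33 and 1.13 and 0.83 for MRPS25. For MRPL36 it was -1.12 and -0.82, and for MRPL58 -0.90 and -0.83. Whether equal replicate numbers mark samples handled together is not given, and a shared source of these splits was not tested. MRPL27 was the steadiest member, with an SD of 0.10 log2 units and all 6 values from 36.7 to 44.7 CPM.

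The remaining genes of the pathway were described from lists. The 5 ribosomal subunits with other names (DAP3, PTCD3, CHCHD1, AURKAIP1 and GADD45GIP1) had a median log2FC of 0.17 over the mean of the hairpins, and none had an unadjusted p under 0.05. Of these, 4 were above 0 and DAP3 was at -0.23 (SE 0.57). DAP3 had 118 and 102 CPM in the control. It split within each hairpin, with replicate 1 the lower in both. The values were 36.7 and 154 CPM with sh-MIR100HG-1 and 43.4 and 140.6 CPM with sh-MIR100HG-2. None of 25 assembly factors had an unadjusted p under 0.05 in that comparison either, at a median of 0.03, nor any of 16 translation factors, at 0.07. With sh-MIR100HG-1 alone the elongation factor GFM1 stood at 0.62 and the ribosomal RNA modifying enzymes MRM1 and RPUSD4 at -1.76 and -0.81, each at an unadjusted p under 0.05 and an adjusted p of 0.714 in edgeR's quasi-likelihood test. The MRM1 value had a 95% interval of -3.44 to -0.08. Its levels were 3.56 and 10.4 CPM in the control and 3.25 and 0.83 CPM with sh-MIR100HG-1, from 216 and 35 reads. With sh-MIR100HG-2 no gene of these 3 lists passed an unadjusted p under 0.05. Between the hairpins RPUSD4 gave 0.70 and the release factor MTRF1 -0.91. Of 11 regulators of mitochondrial gene expression, among them TFAM, NRF1, GABPA and YY1, TFB2M alone reached an unadjusted p under 0.05, at -0.59 with sh-MIR100HG-2. These genes were named after their values were seen. The nuclear respiratory chain and ATP synthase genes had a median of 0.01 over both hairpins and 0.16 between them, in the same range as the members' 0.01 and 0.24.

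The messenger RNAs that the mitochondrial ribosome translates stood lower with sh-MIR100HG-2, where most members stood higher. The 13 messenger RNAs of the mitochondrial genome summed to 32380 and 23900 CPM in the control, 32090 and 34990 CPM with sh-MIR100HG-1, and 15460 and 19380 CPM with sh-MIR100HG-2. The samples with sh-MIR100HG-2 lay below all 4 others. The median log2FC of the 13 was 0.33 under sh-MIR100HG-1 but -0.62 under sh-MIR100HG-2, and between hairpins it was -1.01, where the members had 0.24. At an unadjusted p under 0.05 in edgeR's quasi-likelihood test, 10 of the 13 were below the control with sh-MIR100HG-2, beside 5.15% of all genes. Between the hairpins 12 were below sh-MIR100HG-1, beside 6.12% of all genes. The smallest adjusted p among the 13 in that test was 0.406 and 0.509, respectively. All 13 come from 1 genome and the same libraries, so they are not independent results. MT-ATP8 shares counted bases with MT-ATP6, and MT-ND4L with MT-ND4. MT-CO1, which encodes the catalytic subunit of cytochrome c oxidase, had 7696 and 5753 CPM in the control, 6114 and 6563 CPM with sh-MIR100HG-1, and 2921 and 3342 CPM with sh-MIR100HG-2. Its log2FC was -0.09 (95% interval -0.58 to 0.40) and -1.10 (-1.60 to -0.61), respectively.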

How the data were processed

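RNA sequencing of MDA-MB-231 cells gave 6 libraries in 3 groups of 2. The authors deposited a table of raw read counts per gene, made with STAR (2.5.2a in the submitters' processing notes, another version in the study's methods) on GRCh37 and with featureCounts, which assigned reads to exons and grouped exons into genes; its settings for the handling of strand, of reads that map to several places and of shared exon bases are not given in the sources used here. Titles that end in sh1 and sh2 were read as sh-MIR100HG-1 and sh-MIR100HG-2. Gene identifiers were matched to symbols through a GRCh37 annotation, which named 26966 of 27745 genes.

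Genes with under 5 reads in 3 or more samples were removed, which left 15372 and took out 12373. The counts of all 6 samples were fitted together in edgeR 4.0.16 (R 4.3.3) with TMM scaling and the quasi-likelihood test, with 3 residual degrees of freedom and a common biological coefficient of variation of 27.8%. Benjamini-Hochberg adjustment ran over all genes tested, with calls at 0.05. Members and lists were chosen with earlier results of these data known. Members were named by the smallest unadjusted p under 0.05 (up to 8 a direction and comparison), by the 5 highest and 5 lowest control levels, and by fixed roles. The procedure was tested on simulated data.

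Alternatives were DESeq2 1.42.0, its size factors, no filter, the likelihood ratio test, a replicate block, removal of length and GC trends, and each sample left out. The trends were fitted in each library by local regression (loess in R) and entered as an offset in edgeR. Promoter words were matched in RefSeq windows of GRCh38.p14, and no coordinates were carried between builds.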

Additional observations from a re-analysis of the deposited data

How the results depend on the processing

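No member was called by edgeR's quasi-likelihood test in any of the 4 comparisons, and this held under every alternative run except 1: with no filter on low counts, 1 member (MRPL49) was called for sh-MIR100HG-1 against sh-TRC. With the filter and edgeR's quasi-likelihood test as run here, the number of all genes called was 0 in each comparison. For the mean of the hairpins, sh-MIR100HG-1, sh-MIR100HG-2 and the difference between hairpins in that order, it was 392, 227, 517 and 679 with no filter, 109, 34, 121 and 91 with the likelihood ratio test, and 129, 65, 165 and 103 with DESeq2; the cause was not tested. With 1 sample left out it ran from 0 to 1, 0 to 3, 0 to 5 and 0 to 7, above 0 only without sh-TRC replicate 1 or 2, where the sample left alone is assumed to vary like the other groups. The members' median log2FC ran from -0.066 to 0.173, from -0.124 to 0.0394, from 0.0305 to 0.253 and from 0.103 to 0.316 with 1 sample left out, with the lowest of the first 3 without sh-TRC replicate 1, their highest without sh-TRC replicate 2, and the lowest and highest of the last without sh-MIR100HG-2 replicate 2 and replicate 1. With length and GC trends removed the medians were 0.0942, 0.000399, 0.237 and 0.216. DESeq2's size factors moved them to 0.0372, -0.0770, 0.166 and 0.263. Replicate numbers were not taken to pair the samples across the 3 groups: deviations of same-numbered samples correlated over all genes at -0.205 for sh-TRC with sh-MIR100HG-1, 0.006 for sh-TRC with sh-MIR100HG-2 and 0.436 between the hairpins. With a replicate block the medians were 0.0162, -0.0934, 0.134 and 0.231, and 0 members and 0 genes were called. With the sh-TRC numbers crossed in the block, a pairing added after the data were seen, 0 members and 0 genes were called as well. The log2FC values of MRPS7, MRPS24, MRPL49, MRPS18B, MT-CO1 and MIR100HG in the comparisons that named them gave 91 values under alternatives, which kept their sign; those of other genes were not recomputed. Of the 91, 5 passed the adjusted threshold: MIR100HG over both hairpins with no filter, the likelihood ratio test and DESeq2, and MRPL49 (sh-MIR100HG-1) and MT-CO1 (both hairpins) with no filter. Control levels per kb moved for 14 of 24 members when canonical transcript length replaced merged exon length. With 2 samples a group the median SE of a member's log2FC was 0.22 over the mean of the hairpins and 0.25 with either hairpin, so small changes of single members could not be told from 0.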
